A study of Mus musculus with 6 samples.

Results

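A set of 7 mature miRNAs typical of epithelial cells was followed in white adipose tissue (WAT) of mice under chronic intermittent hypoxia (CIH). They are the 5 members of the miR-200 family, miR-203-3p and miR-205-5p, and they were chosen by miRBase mature accession. All 7 were found among the 707 miRNAs counted. The 6 libraries are 3 labelled replicates from male ApoE-deficient mice exposed to CIH over 8 weeks and 3 from male ApoE-deficient controls. Both groups thus lack apolipoprotein E, a carrier protein needed to remove lipoproteins from the circulation, and no wild-type mice were sequenced. The age of the mice and the fat depot are not given in the sources used here. CIH lowers and restores the inspired oxygen in short cycles and models obstructive sleep apnea. The question of the comparison is which miRNAs differ in WAT after CIH.

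A miRNA guides the silencing complex to messenger RNAs that pair with its seed, bases 2 to 8 of the mature strand. The miR-200 family keeps epithelial cells in their epithelial state by repressing Zeb1 and Zeb2, transcription factors that shut off E-cadherin. These factors in turn repress the miR-200 genes. miR-203 is abundant in skin, where it restrains the proliferative state of keratinocytes by repressing p63. miR-205 is found in the basal cells of stratified and glandular epithelia. Fat cells are of mesenchymal origin, and a piece of fat tissue can also hold vessels, nerves, mesothelium, glands or skin appendages.

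The mature sequences are shown because the family falls into seed classes that cut across its genomic clusters. They were taken from RefSeq on GRCm38.p6, matched by miRNA name (7 of 7), and the seed is in capitals.
miR-200b-3p (MIMAT0000233): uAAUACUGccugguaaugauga
miR-200c-3p (MIMAT0000657): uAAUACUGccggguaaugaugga
miR-429-3p (MIMAT0001537): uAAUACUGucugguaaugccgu
miR-200a-3p (MIMAT0000519): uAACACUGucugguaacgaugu
miR-141-3p (MIMAT0000153): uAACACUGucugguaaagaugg
miR-203-3p (MIMAT0000236): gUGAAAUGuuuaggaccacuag
miR-205-5p (MIMAT0000238): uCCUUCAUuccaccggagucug

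The seed AAUACUG was carried by miR-200b-3p, miR-200c-3p and miR-429-3p, and the seed AACACUG by miR-200a-3p and miR-141-3p. No other RefSeq mouse miRNA in the table had either seed. With positions counted from 1 at the 5′ end, the only seed difference from miR-200b-3p to miR-200a-3p was U4C. The closest pairs in sequence differed at 2 of 22 compared positions. They were miR-200b-3p and miR-200c-3p (U11G and A22G) and miR-200a-3p and miR-141-3p (C17A and U22G). How reads matching several miRNAs were counted is not given in the sources used here. None of the 7 had the same counts as another miRNA in all 6 libraries.

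Both seeds occur in both clusters. The hairpins of miR-200b, miR-200a and miR-429 lie within 1846 bases on the minus strand of chromosome 4, with the mature strands at chr4:156055685-156055706, chr4:156054911-156054932 and chr4:156053916-156053937. In GENCODE release M21 these hairpins lie in introns of Ttll10, and also in an exon (Mir429) or introns (Mir200b and Mir200a) of the noncoding Gm13648. The hairpins of miR-200c (mature strand at chr6:124718324-124718346) and miR-141 (chr6:124717917-124717938) lie 336 bases apart on the minus strand of chromosome 6, in an intron of the noncoding Gm15884, and Mir141 also overlaps an exon of Gm29008. miR-203-3p lies at chr12:112130927-112130948 on the plus strand, outside any other gene in that release. RefSeq places miR-203b on the opposite strand of the same hairpin, and whether the counting used strand is not given. miR-205-5p lies at chr1:193507503-193507524 on the minus strand, in an exon of 4631405K08Rik, a long noncoding RNA gene.

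The libraries differed in depth and makeup. Total counts were between 636963 and 4783768, and the most abundant miRNA took between 20.7% and 34.9% of a library. TMM factors, which correct the totals for differences in makeup, lay between 0.575 (control 1) and 1.45 (CIH 3). Levels below are TMM-normalized CPM (reads of a miRNA relative to the corrected library total) unless counts are named. Control 1 and control 2 stood apart, with 487 and 552 miRNAs detected against 631 to 649 in the other 4 libraries. Their totals, 1365868 and 4783768 counts, were not the lowest, and control 2 was the deepest library. Of the 395 miRNAs averaging 10 CPM or more, 127 (32.2%) were lower in both control 1 and control 2 than in any other library. Others were higher in both than in any other library, and these were not counted. miRNAs of fat cells and of other cell types were not checked, because no source used here pairs the other accessions with names. In tissue libraries, fewer cells of a type and less RNA per cell cannot be told apart.

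None of the 7 miRNAs passed the comparison of the CIH and control groups by edgeR's quasi-likelihood test with Benjamini-Hochberg adjustment over the 633 miRNAs tested. With the same test 0 of the 633 (0%) had an adjusted p-value under 0.05, and DESeq2, edgeR's exact test and limma voom also gave 0. An unadjusted p-value under 0.05 with a change of at least 1.5-fold was reached by 0 of the 7 and by 16 of the 633 (2.53%). The libraries of the groups overlapped for all 7, as they did for most of the 633, of which 51 (8.06%) did not overlap. The log2 fold change (CIH over control) was above 0 for 3 of the 7 and below 0 for 4, with a median of -0.36, and over all miRNAs tested it was above 0 for 332 and below 0 for 301, with a median of 0.07. With other scalings 3 of these signs changed. miR-429-3p was above 0 with library totals (0.20), and miR-200a-3p (-0.24) and miR-141-3p (-0.28) were below 0 with upper-quartile factors. The same 3 signs also changed with 1 library left out. Those of miR-200b-3p (1.91) and miR-200c-3p (1.41) changed as well, both without control 1. miR-429-3p was at 2.90 without control 1, and without control 2 miR-200a-3p was at -0.13 and miR-141-3p at -0.23. All 7 passed the filter on low counts. Within the control group the highest library exceeded the lowest by 1.54-fold for miR-203-3p and by 44.7-fold to 246-fold for the other 6, whereas within the CIH group it did so by 1.54-fold to 7.0-fold.

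**Figure D1:**
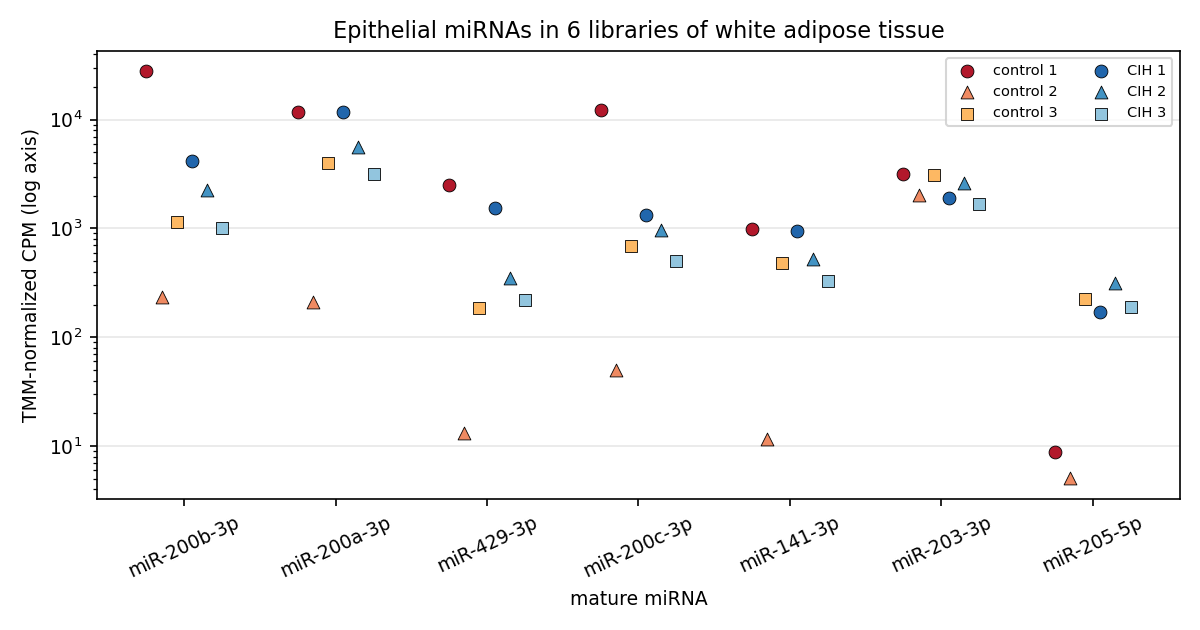
TMM-normalized CPM (log axis) of each miRNA in the 6 libraries, 1 point per library, with controls in red to yellow and CIH in blue. Control 2 is lowest for 6 of the 7 miRNAs, miR-203-3p lies between 1689 and 3159 CPM in every library, and miR-205-5p is under 10 CPM in control 1 and control 2 alone.

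The chromosome 4 cluster was read most through miR-200b-3p and miR-200a-3p. The counts of miR-200b-3p were 21966, 964 and 1275 in controls 1 to 3 and 5214, 2072 and 940 in CIH 1 to 3. Its level was 27958, 233 and 1149 CPM in controls 1 to 3 and 4187, 2239 and 1020 in CIH 1 to 3. Control 1 was thus the highest library, 6.68-fold above the next, control 2 was the lowest, and control 3 lay inside the CIH range. In control 1 miR-200b-3p was the 10th most abundant miRNA, and in control 2 it ranked 115th. The mean was 9780 ± 15749 CPM (SD, n = 3) in the control group and 2482 ± 1598 CPM (SD, n = 3) in the CIH group. CIH over control, edgeR gave a log2 fold change of -1.98 (SE 1.65, 95% interval -5.92 to 1.97, adjusted p = 0.882), and without control 1 it turned to 1.91.

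miR-200a-3p, which lies next to miR-200b on chromosome 4, was the most abundant of the 7 in control 3 and in all CIH libraries. It had 9151, 870 and 4405 reads in controls 1 to 3 and 14636, 5170 and 2917 in CIH 1 to 3. Its level was 11647, 209.9 and 3970 CPM in controls 1 to 3 and 11754, 5586 and 3164 in CIH 1 to 3. Control 1 and CIH 1 were level after TMM scaling, and control 2 was 15.1-fold below the next lowest library, CIH 3. Scaled by library totals, CIH 1 (9275 CPM) was above control 1 (6700 CPM). The mean was 5276 ± 5829 CPM (SD, n = 3) in the control group and 6835 ± 4429 CPM (SD, n = 3) in the CIH group. For miR-200a-3p edgeR gave a log2 fold change of 0.37 (SE 1.28, 95% interval -2.68 to 3.43, adjusted p = 0.912).

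miR-429-3p, the third member of that cluster, was measured at lower levels. Its counts were 1964, 55 and 205 in controls 1 to 3 and 1909, 325 and 202 in CIH 1 to 3. In CPM it reached 2500, 13.3 and 185 in controls 1 to 3 and 1533, 351 and 219 in CIH 1 to 3. Control 1 and CIH 1 were the high libraries. Its spread within the CIH group, 7.0-fold from lowest to highest, was the widest of the 7. The mean was 899 ± 1389 CPM (SD, n = 3) in the control group and 701 ± 724 CPM (SD, n = 3) in the CIH group. For miR-429-3p, edgeR put the log2 fold change at -0.36 (SE 1.65, adjusted p = 0.940), and without control 1 it was 2.90.

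On chromosome 6, miR-200c-3p had the widest range of the 7. Its counts were 9736, 209 and 764 in controls 1 to 3 and 1645, 896 and 468 in CIH 1 to 3. The levels were 12392, 50.4 and 689 CPM in controls 1 to 3 and 1321, 968 and 508 in CIH 1 to 3, so control 1 exceeded control 2 by 246-fold. The factor between these libraries was 163-fold when counts were scaled by library totals. The other 4 libraries lay within 2.60-fold of each other. The mean was 4377 ± 6949 CPM (SD, n = 3) in the control group and 932 ± 408 CPM (SD, n = 3) in the CIH group. By edgeR the log2 fold change came to -2.23 (SE 1.69, 95% interval -6.26 to 1.80, adjusted p = 0.882), and it was 1.41 without control 1.

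Its neighbour miR-141-3p, with the other seed, was the least abundant of the family in control 1. It had 775, 48 and 532 reads in controls 1 to 3 and 1169, 490 and 303 in CIH 1 to 3. Its level was 986, 11.6 and 480 CPM in controls 1 to 3 and 939, 529 and 329 in CIH 1 to 3. Unlike miR-200c-3p, it was only 1.05-fold higher in control 1 than in the next library, CIH 1, and when scaled by library totals it was highest in CIH 1. The mean was 492 ± 487 CPM (SD, n = 3) in the control group and 599 ± 311 CPM (SD, n = 3) in the CIH group. Between the groups its log2 fold change was 0.28 (SE 1.29, adjusted p = 0.940 by edgeR).

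The whole miR-200 family took 3.19%, 0.0449% and 0.906% of all counts in controls 1 to 3 and 1.56%, 1.21% and 0.758% in CIH 1 to 3. The pattern of control 1 highest and control 2 lowest was seen for 24 of those 395 miRNAs (6.08%), among them miR-200b-3p, miR-429-3p, miR-200c-3p and miR-141-3p. Scaling by library totals kept this order for miR-200b-3p, miR-429-3p and miR-200c-3p but not for miR-141-3p. For miR-200a-3p, CIH 1 was the highest under both scalings. The median miRNA of the 7 differed 78.5-fold between its highest and lowest control library, and the median of the 395 differed 6.38-fold (1 CPM added to each level). Within the CIH group these medians were 2.85-fold and 1.67-fold.

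The makeup of the family is read within a library, so the scaling of the libraries does not enter it. The 3 miRNAs with the seed AAUACUG took 77.2% of the family's counts in control 1 (95% exact Clopper-Pearson interval 76.8% to 77.6%). They took 57.2% in control 2 (55.1% to 59.3%) and 31.3% in control 3 (30.2% to 32.3%). In the CIH libraries they took 35.7%, 36.8% and 33.3%. The seed AACACUG thus held most of the family's counts in control 3 and in every CIH library, and the smaller part in control 1 and control 2. These intervals cover at most the counting error and assume independent reads. Reads of a PCR-amplified library are not independent molecules, so the intervals can be too narrow.

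**Figure D2:**
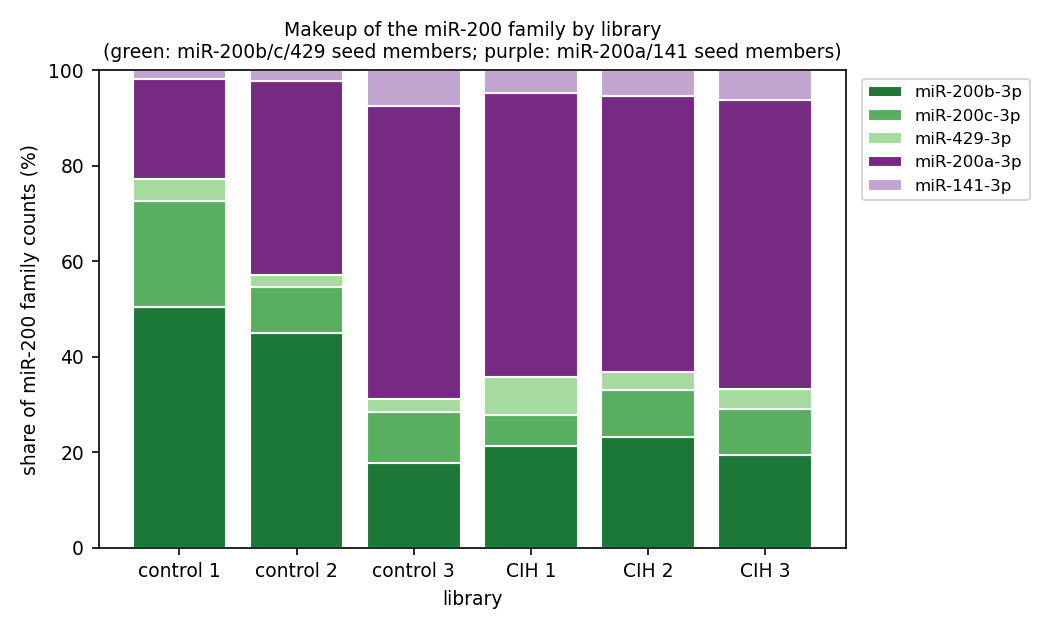
Share (%) of the miR-200 family's counts taken by each of its 5 members in each library, stacked to 100, with the AAUACUG seed in green and the AACACUG seed in purple. The green part is 77.2% in control 1 and 57.2% in control 2, and between 31.3% and 36.8% in the other 4 libraries.

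The same shift was found inside each cluster. On chromosome 4, the ratio of miR-200b-3p to miR-200a-3p (1 count added to each) was 2.40 in control 1, 1.11 in control 2 and 0.290 in control 3. In the CIH libraries it was 0.356, 0.401 and 0.323. On chromosome 6, the ratio of miR-200c-3p to miR-141-3p was 12.6, 4.29 and 1.44 in controls 1 to 3 and 1.41, 1.83 and 1.54 in CIH 1 to 3. In both clusters control 1 and control 2 were above the other 4 libraries, and the ratio in control 1 was 8.29-fold and 8.74-fold that in control 3. The groups overlapped in both ratios through control 3.

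miR-429-3p followed the other carriers of its seed only in part. Its ratio to miR-200a-3p was 0.215, 0.0643 and 0.0467 in controls 1 to 3 and 0.130, 0.0630 and 0.0696 in CIH 1 to 3. Control 1 was the highest library in this ratio, as for the other carriers, but control 2 lay among the CIH values. The ratio of miR-200b-3p to miR-429-3p, which share the seed and the cluster, was 11.2, 17.2 and 6.19 in controls 1 to 3 and 2.73, 6.36 and 4.64 in CIH 1 to 3. Of the pairs that share a seed across the clusters, the ratio of miR-200b-3p to miR-200c-3p stayed between 1.67 and 4.60 (2.75-fold), and the ratio of miR-200a-3p to miR-141-3p between 8.27 and 17.8 (2.15-fold). The members of these pairs are also the closest in sequence. The third such pair varied more, by 5.75-fold, as the ratio of miR-429-3p to miR-200c-3p was 0.202, 0.267 and 0.269 in controls 1 to 3 and 1.16, 0.363 and 0.433 in CIH 1 to 3. There all CIH libraries lay above all controls, and control 3 lay with control 1 and control 2.

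Ratios were computed for all 21 pairs of the 7 miRNAs, and in 3 of them the groups did not overlap, against 5606 of the 77815 pairs (7.2%) among the 395 miRNAs averaging 10 CPM or more. The 21 pairs share miRNAs and libraries. The 3 pairs were miR-429-3p to miR-200c-3p, miR-200a-3p to miR-200c-3p and miR-205-5p to miR-203-3p. For miR-200a-3p to miR-200c-3p the ratio was 0.940, 4.15 and 5.76 in controls 1 to 3 and 8.89, 5.77 and 6.22 in CIH 1 to 3. The groups were barely apart there, with 5.759 in control 3 against 5.765 in CIH 2. Whether counting error covers this gap was not tested.

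**Figure D3:**
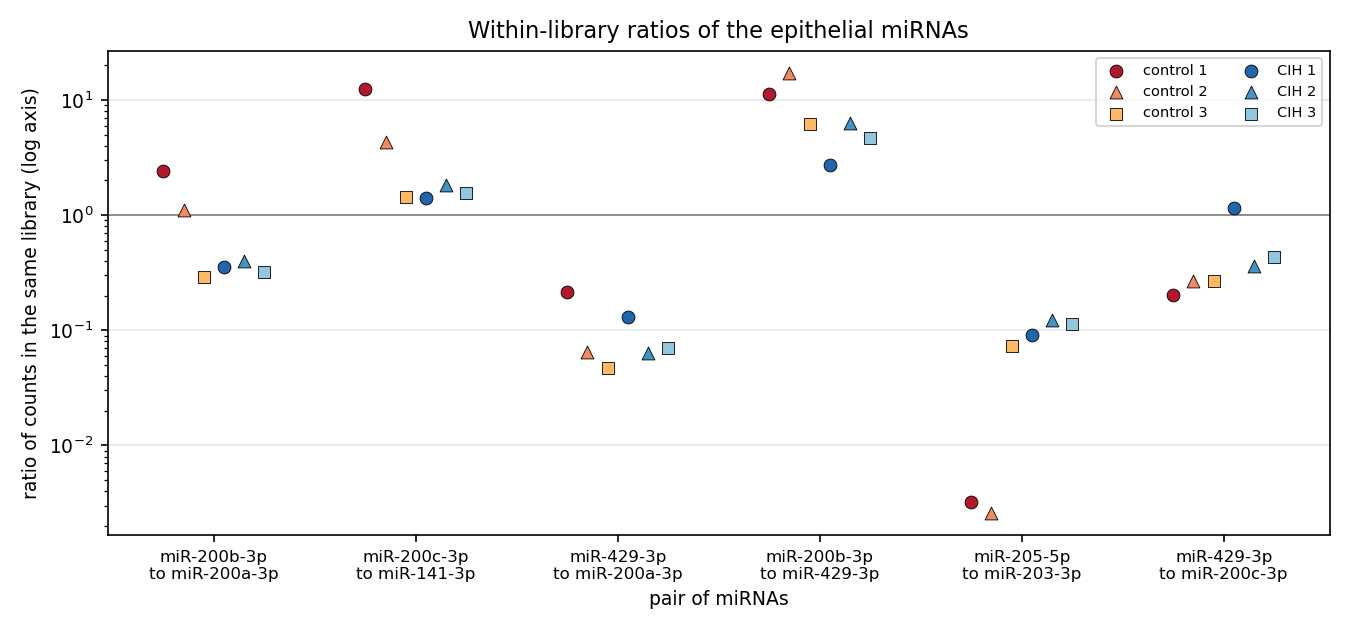
Ratio of the counts of a pair of miRNAs in the same library (log axis, 1 count added to each), 1 point per library, with a grey line at equal counts. Control 1 and control 2 lie apart from the other 4 libraries for miR-200b-3p to miR-200a-3p, miR-200c-3p to miR-141-3p, miR-200b-3p to miR-429-3p and miR-205-5p to miR-203-3p. For miR-429-3p to miR-200c-3p the 3 controls, from 0.202 to 0.269, lie below the CIH libraries.

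miR-203-3p was the steadiest of the 7. Its counts were 2482, 8485 and 3434 in controls 1 to 3 and 2381, 2407 and 1557 in CIH 1 to 3. After scaling it was 3159, 2047 and 3095 CPM in controls 1 to 3 and 1912, 2601 and 1689 in CIH 1 to 3, a range of 1.87-fold over all 6 (2.87-fold when scaled by library totals). Control 2, where the miR-200 family was lowest, held miR-203-3p at a level inside the CIH range. The mean was 2767 ± 624 CPM (SD, n = 3) in the control group and 2067 ± 475 CPM (SD, n = 3) in the CIH group. With edgeR the log2 fold change was -0.42 (SE 0.58, 95% interval -1.82 to 0.98, adjusted p = 0.885), the narrowest interval of the 7.

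miR-205-5p, the rarest of the 7 by its mean level, separated control 1 and control 2 from the rest. It had 7, 21 and 251 reads in controls 1 to 3 and 214, 292 and 175 in CIH 1 to 3. The exact Poisson 95% interval of the 7 counts in control 1 was 2.81 to 14.4 counts, and of the 21 counts in control 2 it was 13.0 to 32.1 counts. The levels were 8.91, 5.07 and 226 CPM in controls 1 to 3 and 172, 315 and 190 in CIH 1 to 3. The lowest of the other 4 libraries was 19.3-fold above the higher of control 1 and control 2. A gap of at least 10-fold in that direction (1 CPM added) was found for 54 of the 395 miRNAs (13.7%), and for miR-205-5p alone among the 7.

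The mean of miR-205-5p was 80.1 ± 127 CPM (SD, n = 3) in the control group and 226 ± 78.3 CPM (SD, n = 3) in the CIH group. The log2 fold change between them was 1.5 (SE 1.41, 95% interval -1.87 to 4.86, adjusted p = 0.882 by edgeR). This value depended on control 3, which lay inside the CIH range. Without control 3 the log2 fold change was 5.04 (SE 0.65, 95% interval 3.44 to 6.63, adjusted p = 0.00398 by edgeR). In that fit 118 of 614 miRNAs (19.2%) passed the adjusted threshold of 0.05, and miR-205-5p was 1 of them and the only one of the 7. Without control 1 and control 2, which left control 3 as the only control, the log2 fold change of miR-205-5p was 0.07.

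miR-205-5p and miR-203-3p, both known from stratified epithelium, had different patterns over the libraries. The ratio of miR-205-5p to miR-203-3p was 0.00322, 0.00259 and 0.0734 in controls 1 to 3 and 0.0903, 0.122 and 0.113 in CIH 1 to 3. The groups did not overlap in this ratio, with control 3 near the CIH values. Against miR-200a-3p, miR-205-5p stood at 0.000874 in control 1, 0.0253 in control 2 and 0.0147 to 0.0603 in the other 4 libraries, so control 2 lay among the others there.

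**Figure D4:**
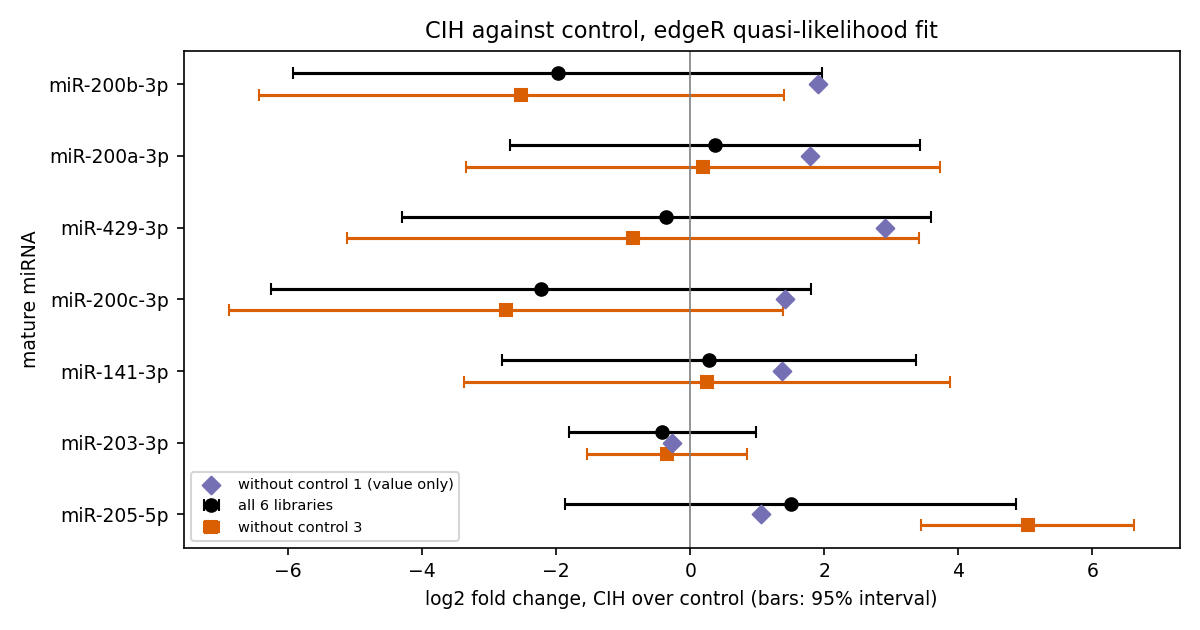
Log2 fold change (CIH over control) from edgeR's quasi-likelihood fit for each miRNA, with 95% intervals as bars, for all 6 libraries (black) and without control 3 (orange), and the value alone without control 1 (purple). All black intervals span 0, and of the orange ones that of miR-205-5p, from 3.44 to 6.63, does not.

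The 7 did not share 1 pattern, since control 1 was the highest and control 2 the lowest library for 4 of them. The mean of their scaled log2 CPM, taken only to look for miRNAs like them on average, was highest in control 1 and lowest in control 2. Of 388 other miRNAs averaging 10 CPM or more, MIMAT0000677 and MIMAT0000739 followed this mean most closely, with Pearson correlations of 0.974 and 0.963 over the 6 libraries. These values are a description, since they are the highest and all miRNAs share the scaling of the libraries. The counts of MIMAT0000739 were 6245, 148 and 613 in controls 1 to 3 and 1497, 847 and 417 in CIH 1 to 3, the same order from high to low as the counts of miR-200c-3p. For MIMAT0000677 they were 9421, 3853 and 4669 in controls 1 to 3 and 7092, 3673 and 2947 in CIH 1 to 3.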

How the data were processed

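From WAT of ApoE-deficient mice, 3 CIH and 3 control small RNA libraries were analysed. The authors deposited raw read counts per mature miRNA accession. The trimming, aligner, miRNA release and handling of multiply matching reads are not given in the sources used here. Libraries were assigned by title and library name. Labels do not say more on how replicates were taken, so p-values set the group difference against the spread between these libraries. No pair of libraries agreed within sampling noise.

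The 633 miRNAs with at least 10 counts in all were fitted with edgeR 4.0.16 under R 4.3.3, with TMM factors, the quasi-likelihood test and no covariate besides the group. Standard errors and 95% intervals came from the fold change and test statistic. Alternatives used DESeq2 1.42.0, limma 3.58.1 with voom, edgeR's exact test, other scalings and filters, the replicate number as a block, and each library left out. An exact permutation test of 3 against 3 libraries cannot give a p-value under 0.1 and was not used. Ratios had 1 count added to each miRNA. The likeness measure was Pearson's correlation between a miRNA's log2 CPM (prior count 2) and the mean of the scaled levels. The fit was first tested on simulated counts. Python 3.11.15 with scipy 1.17.1 was used for the rest.

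The 7 miRNAs and all lists were chosen with earlier results of these data known. All 7 are named, and the other miRNAs named are those most alike by the rule above, limited to 2 since only accessions are given. The other arms of the hairpins and lists of miRNAs of other cell types (other epithelial, muscle, pancreas, liver and gut, immune, erythroid, endothelial, stromal, neural, adipocyte) were not analysed here.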

Additional observations from a re-analysis of the deposited data

How the results depend on the processing

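The comparison was repeated with 17 other settings, and with 1 chosen after seeing the data, without both control 1 and control 2. The adjusted threshold of 0.05 was passed by 0 of the 7 miRNAs in all except the fit without control 3, and their number with each library left out in turn ran from 0 to 1, as did the number at an unadjusted p-value under 0.05 and 1.5-fold, while the number over all miRNAs ran from 0 to 118. limma voom also gave 1 at the unadjusted level, miR-205-5p (log2 fold change 3.44, adjusted p = 0.418). The log2 fold change of the summed level of the 7 was -0.77, and from -1.24 to 1.22 with each library left out. miR-203-3p kept its sign in all 18 alternatives, and miR-205-5p in the 17 that tested it, since a filter that asks for 10 counts in each library removes it.

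The sign of the other 5 changed in some settings. Leaving out each library in turn gave log2 fold changes of -2.55 to 1.91 for miR-200b-3p, -0.22 to 1.79 for miR-200a-3p, -1.61 to 2.90 for miR-429-3p, -2.75 to 1.41 for miR-200c-3p and -0.23 to 1.37 for miR-141-3p. miR-429-3p was at 0.20 with library totals, 0.18 with library sizes without the 5 most abundant miRNAs and 1.71 with limma voom, which put miR-200b-3p at 0.081 and miR-200c-3p at 0.26. Upper-quartile factors gave -0.24 for miR-200a-3p and -0.28 for miR-141-3p. The median of all miRNAs tested moved from 0.07 to 0.33 with library totals and to -0.52 with upper-quartile factors, and relative to it miR-429-3p was lower, and miR-200a-3p and miR-141-3p higher, under these scalings as before. Without both control 1 and control 2, miR-200b-3p was at 1.16, miR-429-3p at 1.96 and miR-200c-3p at 0.49. Apart from the left-out libraries, the cause was not tested.

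Between same-numbered libraries, deviations from the group means correlated at 0.353 for number 1, -0.116 for number 2 and 0.0195 for number 3. The numbers were not taken to pair the libraries, but with so few libraries these correlations cannot exclude a pairing. The library names also carry matching numbers in the 2 groups, and the labels do not say what these mean. In the fit with a replicate block, 0 of the 7 were called, miR-200b-3p was at 0.019, miR-429-3p at 1.11, miR-200c-3p at -0.11, miR-200a-3p at 1.15, miR-141-3p at 1.11 and miR-205-5p at 3.60 (adjusted p = 0.819). Among the miRNAs most like the mean of the 7, MIMAT0000677 ranked 1 and MIMAT0000739 ranked 4 with a prior count of 0.5, and 6 and 2 with Spearman correlation, where ranks were tied. Counting error limits miR-205-5p in control 1 and control 2.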
